A study of Mus musculus with 24 samples.

Results

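Type I interferons are cytokines that signal through the receptor chains IFNAR1 and IFNAR2 and the kinases JAK1 and TYK2. STAT2 and IRF9 are parts of the complex ISGF3, which binds interferon-stimulated response elements in the promoters of target genes. The targets include viral RNA sensors, IFIT proteins, 2′-5′ oligoadenylate synthetases, the ubiquitin-like modifier ISG15 and the transcription factor IRF7, which raises further interferon production. Myeloid-derived suppressor cells (MDSCs) are immature monocytic and granulocytic cells that accumulate in tumour bearers and restrain T cells. A list of 37 such response genes was described here in sorted spleen MDSCs, by their symbols in the deposited table. All 37 were among its 23479 genes.

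RNA was sequenced from monocytic (M) and polymorphonuclear (PMN) MDSCs in 8 groups of 3 libraries. The KO_LD groups came from mice labelled IL-6KO (strain B6.129S2-Il6tm1Kopf/J) that were lymphodepleted with cyclophosphamide and fludarabine, and the KO_UT groups from untreated mice of that label. The WT_LD and WT_UT groups came from lymphodepleted and untreated mice labelled wild type. Cyclophosphamide and fludarabine are cytotoxic drugs that remove lymphocytes and other dividing cells. Every mouse, untreated ones included, bore B16 tumours, a transplantable mouse melanoma, of over 25 mm2 at treatment. Spleens were taken 7 days later and MDSCs were sorted to over 99% purity by flow cytometry. The design text gives 3 mice for the WT_LD, WT_UT and KO_UT groups and no number for KO_LD. It is not stated whether M and PMN libraries of the same number came from 1 mouse.

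Recovered reads ran from 7237462 to 11193088 per M library and from 3249647 to 9999731 per PMN library. The 6 monocyte markers in the table summed to 39984 to 61708 normalized counts in M libraries and 2252 to 6151 in PMN libraries. The 6 neutrophil markers summed to 2751 to 21820.2 in M libraries and 82197 to 149000 in PMN libraries. The targeted gene, Il6, went against the labels, with 16.2 to 219.7 normalized counts in the 12 libraries labelled KO and 0 to 7.20 in the 12 labelled WT. The counts do not show which exons these reads came from. A difference between genotypes is therefore given below as one between libraries labelled KO and WT. In sorted bulk samples, fewer cells that carry a transcript and less transcript per cell cannot be told apart.

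Promoter windows from RefSeq (GRCm38.p6) were at hand for 28 of the 37 genes. They run from 250 bases before to 50 bases after the annotated start. The core of the interferon-stimulated response element, GAAANNGAAA on either strand, was present in 18 of these 28 windows (64.3%). It was present in 20 of 48 windows of other interferon-stimulated genes (41.7%) and in 1079 of all 27025 windows of the reference table (3.99%). The gamma-activated site core, TTCNNNGAA, which reads the same on both strands, was present in 6 of the 28 windows (21.4%), against 9.55% of all windows. Matches of the 2 motifs were counted separately and may overlap. A match is a description of the letters and was not tested as a binding site.

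The following 160-base stretches end at the base before the annotated start and are given 5′ to 3′ on the gene's own strand. The response element core is in capitals. For Ifit3, Ddx60 and Gbp3 the start used lies downstream of the first base of the gene's span, so these stretches end inside it. Ifit1 (chr19:34640729-34640888, plus strand) and Ifit3 (chr19:34583369-34583528, plus strand) encode proteins that bind viral RNA. Isg15 (chr4:156200819-156200978, minus strand) encodes the ubiquitin-like modifier. Rsad2 (chr12:26456453-26456612, minus strand) encodes viperin, an antiviral radical-SAM enzyme, and Ddx60 (chr8:61927927-61928086, plus strand) encodes an antiviral helicase. All 5 were called lower in M-MDSCs than in PMN-MDSCs in at least 3 of the 4 comparisons below. Gbp3 (chr3:142559884-142560043, plus strand), a guanylate-binding GTPase, and Bst2 (chr8:71537473-71537632, minus strand), tetherin, which holds budding virions at the cell surface, were called higher in M-MDSCs in all 4.
Ifit1: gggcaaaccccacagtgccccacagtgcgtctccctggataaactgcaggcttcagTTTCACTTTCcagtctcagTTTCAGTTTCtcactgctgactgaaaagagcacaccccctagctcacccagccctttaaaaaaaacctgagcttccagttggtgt
Ifit3: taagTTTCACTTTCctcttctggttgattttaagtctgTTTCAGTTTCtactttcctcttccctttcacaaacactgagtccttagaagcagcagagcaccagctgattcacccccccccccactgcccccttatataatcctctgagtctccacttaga
Isg15: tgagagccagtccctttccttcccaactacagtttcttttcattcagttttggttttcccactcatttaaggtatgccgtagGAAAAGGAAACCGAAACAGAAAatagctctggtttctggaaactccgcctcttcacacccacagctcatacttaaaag
Rsad2: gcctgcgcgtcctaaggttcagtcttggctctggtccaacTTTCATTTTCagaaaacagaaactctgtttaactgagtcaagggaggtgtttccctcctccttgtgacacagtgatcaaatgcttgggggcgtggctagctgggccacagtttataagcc
Ddx60: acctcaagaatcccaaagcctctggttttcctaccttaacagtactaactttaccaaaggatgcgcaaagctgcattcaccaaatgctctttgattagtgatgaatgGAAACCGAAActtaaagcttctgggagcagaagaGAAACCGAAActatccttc
Gbp3: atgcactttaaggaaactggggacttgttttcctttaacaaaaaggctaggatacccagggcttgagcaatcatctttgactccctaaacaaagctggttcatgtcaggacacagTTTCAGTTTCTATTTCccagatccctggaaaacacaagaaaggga
Bst2: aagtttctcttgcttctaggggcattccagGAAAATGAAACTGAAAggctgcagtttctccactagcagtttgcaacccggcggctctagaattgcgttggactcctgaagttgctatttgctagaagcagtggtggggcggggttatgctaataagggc
Isg15 held 3 matches, which overlap in a single run of capitals, Rsad2 held 1, and the other 5 stretches held 2 each, overlapping in Gbp3 and Bst2. Of the 4 genes called higher in M-MDSCs in all 4 groups described below, both with a window held the core. Of the 11 called lower, 6 of 9 with a window held it.

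Most of the genes lay on the same side of their mean within a library, in both cell types. For each gene, the log2 level was set against its mean over the 12 libraries of the cell type, and the median of these deviations was taken in each library. M libraries of the KO_LD group had medians of −0.05, −0.69 and −0.65, those of KO_UT had −0.20, 0.34 and −0.14, those of WT_LD had 0.33, 0.25 and −0.53, and those of WT_UT had 0.46, 0.44 and 0.43. The 3 WT_UT libraries were the highest and lay close together, while the libraries of each other group were spread out. Over the 36 genes tested in PMN-MDSCs the medians were −0.06, −0.98 and −0.34 in KO_LD, 0.44, −0.20 and 0.17 in KO_UT, 0.22, 0.04 and −1.13 in WT_LD, and 0.83, 0.65 and 0.53 in WT_UT. All 3 WT_UT libraries were above the other 9 in PMN-MDSCs as well. Medians over all genes tested stayed between −0.02 and 0.04 in M libraries and between −0.11 and 0.15 in PMN libraries. After quantile normalization each of the 24 medians kept its sign, and the lowest remained WT_LD_PMN_003 at −1.21.

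**Figure D1:**
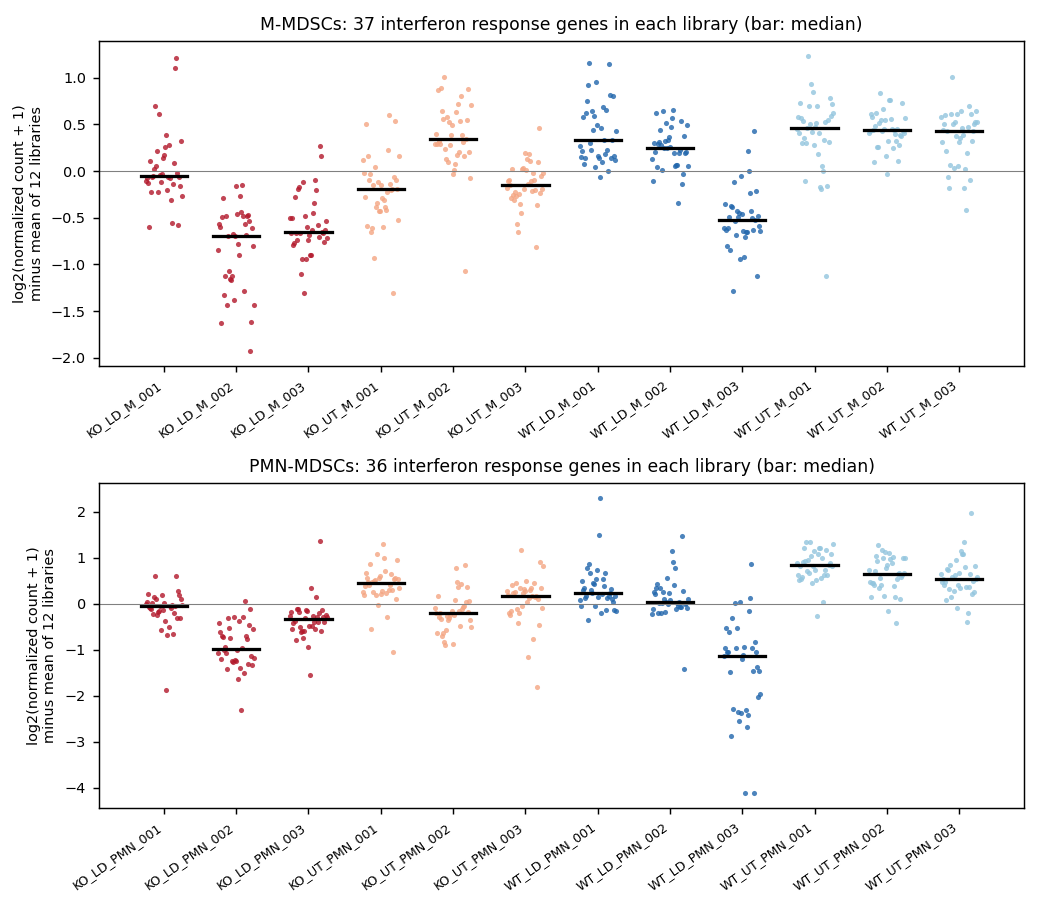
Deviation of each gene's log2(normalized count + 1) from its mean over the 12 libraries of a cell type (vertical axis), for the 37 genes in M-MDSCs (top) and the 36 tested in PMN-MDSCs (bottom), by library. Points are genes and bars are medians. The untreated WT libraries are the highest, and WT_LD_M_003, WT_LD_PMN_003, KO_LD_M_002 and KO_LD_PMN_002 are the lowest of their groups.

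In every group but WT_UT_M, 1 library was the highest or the lowest for most of the genes. KO_LD_M_001 was the highest of its group for 35 of the 37 genes, against 32.5% of all genes tested. KO_UT_M_002 was the highest of its group for 32 genes (33.0% of all genes) and WT_LD_M_003 the lowest for 34 (31.4% of all genes). Among PMN libraries, KO_LD_PMN_001 was the highest for 28 of 36 genes (36.6% of all genes), KO_UT_PMN_002 the lowest for 28 (28.7%) and WT_LD_PMN_003 the lowest for 30 (34.6%). In WT_UT_PMN, library 001 was the highest for 29 (35.7%), while in WT_UT_M no library was the highest or lowest for more than 18 of the 37 genes. Library 001 of KO_LD was thus high and library 002 low in both cell types, and library 003 of WT_LD was low in both.

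The spread within a group was also wider for these genes than for all genes at that level, except among untreated WT M-MDSCs. Over the 34 genes with a mean of at least 100 normalized counts in M-MDSCs, the median coefficient of variation was 33.0% in KO_LD, 25.8% in KO_UT, 33.3% in WT_LD and 8.09% in WT_UT. Over the 7437 genes at that level it was 15.7, 11.7, 14.3 and 9.15% in the same groups. In PMN-MDSCs the 32 genes at that level had medians of 32.1% in KO_LD, 28.7% in KO_UT, 44.8% in WT_LD and 16.0% in WT_UT, against 18.8, 21.7, 28.3 and 13.9% over 6789 genes. No test was made of these descriptions.

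Markers of other cells differed between some of the same libraries. The conventional dendritic cell markers summed to 429.8 in WT_LD_PMN_003, against 2006 and 1842 in the other WT_LD PMN libraries. Its neutrophil marker sum, 149000, was the highest of the 24 libraries. In KO_LD PMN-MDSCs the dendritic cell sum was 1135 in library 002 against 2603 and 2220.1. Itgax gave most of these sums, and Xcr1 averaged under 12 normalized counts in every group. The part of these markers in the spread was not tested.

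Ifih1, Ddx58 and Dhx58 encode the cytosolic RNA sensors MDA5, RIG-I and LGP2, and Zbp1 encodes a sensor of left-handed nucleic acids. In M-MDSCs the levels over the 12 libraries ran from 333 to 898 normalized counts for Ifih1 and from 405 to 956 for Ddx58. Zbp1 had 345, 169 and 302 in KO_LD_M, 742, 962 and 475 in KO_UT_M, 782, 607 and 299 in WT_LD_M and 872, 782 and 744 in WT_UT_M. The 3 KO_LD libraries did not overlap the KO_UT libraries for this gene.

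Of the transcription factors, Stat2 in M-MDSCs had 1374, 904 and 747 in KO_LD_M, 848, 1595 and 1039 in KO_UT_M, 1341, 1953 and 834 in WT_LD_M and 1885, 1730.2 and 1923 in WT_UT_M. Its PMN levels were 936, 619.8 and 772 in KO_LD_PMN, 1489, 823 and 898 in KO_UT_PMN, 1265, 1272 and 488 in WT_LD_PMN and 1466, 1367 and 1402 in WT_UT_PMN. The WT_UT libraries lay close together in both cell types, and among the others only WT_LD_M_002 and KO_UT_PMN_001 came above the highest of them.

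Irf9, the DNA-binding part of ISGF3, had 675, 646 and 652 in KO_LD_M, 887, 969.6 and 806 in KO_UT_M, 874, 815 and 564 in WT_LD_M and 973, 845 and 920 in WT_UT_M. In PMN-MDSCs its levels were 1128, 736 and 705 in KO_LD_PMN, 1689, 1058 and 1617 in KO_UT_PMN, 1342, 1639 and 802 in WT_LD_PMN and 1820.3, 1622 and 1299 in WT_UT_PMN. KO_LD lay below KO_UT without overlap in M-MDSCs.

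Irf7 had 977, 404 and 643 in KO_LD_M, 949, 1889.6 and 852 in KO_UT_M, 1565, 1246 and 565 in WT_LD_M and 1472, 1417 and 1371 in WT_UT_M. In PMN-MDSCs its levels were 1373, 673 and 1258 in KO_LD_PMN, 1795, 1072 and 1592 in KO_UT_PMN, 1518, 1168 and 481 in WT_LD_PMN and 2520, 2208 and 2292 in WT_UT_PMN. The 3 WT_UT PMN libraries stood above the other 9 PMN libraries.

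Among the IFIT genes, Ifit3 had 258, 58.3 and 141 in KO_LD_M, 104, 322 and 132 in KO_UT_M, 358, 194 and 64.7 in WT_LD_M and 197, 192 and 167 in WT_UT_M. PMN libraries had 1078, 265 and 504 in KO_LD_PMN, 992, 399.9 and 660.1 in KO_UT_PMN, 1307, 619.5 and 145 in WT_LD_PMN and 1822, 1721 and 1284 in WT_UT_PMN. The lowest library of each lymphodepleted PMN group, KO_LD_PMN_002 and WT_LD_PMN_003, was far below the others of its group. Reads that also match related genes may be missing or misplaced for Ifit3, Ifit1, Oas1a, Trim30a, the Gbp genes and the Mx genes. These single levels are therefore uncertain.

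Oasl2, an oligoadenylate synthetase-like protein, had 954, 450.5 and 396 in KO_LD_M, 771, 1411 and 717 in KO_UT_M, 1474, 1397 and 695 in WT_LD_M and 1865, 1555 and 1415 in WT_UT_M. PMN libraries had 6291, 2681 and 5240 in KO_LD_PMN, 13662, 5237 and 6287 in KO_UT_PMN, 8744, 6659 and 1106 in WT_LD_PMN and 13207, 12939.9 and 12551 in WT_UT_PMN. Of the PMN libraries, only WT_LD_PMN_003 lay below the highest M library, while the 3 WT_UT PMN libraries were close to each other.

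Isg15 had 65.5, 25.1 and 34.4 in KO_LD_M, 49.7, 87.8 and 68.7 in KO_UT_M, 130.3, 84.3 and 34.5 in WT_LD_M and 122, 98.3 and 103 in WT_UT_M. In PMN-MDSCs it had 259.9, 97.6 and 204 in KO_LD_PMN, 334, 204 and 285 in KO_UT_PMN, 331, 225 and 43.2 in WT_LD_PMN and 402, 499 and 300.3 in WT_UT_PMN. Usp18, which removes ISG15 from proteins and damps receptor signalling, had 277, 156 and 167 in KO_LD_M, 187, 355 and 221 in KO_UT_M, 355, 324 and 243 in WT_LD_M and 305, 281 and 261 in WT_UT_M. In PMN-MDSCs its levels were 317, 145 and 182 in KO_LD_PMN, 532, 189 and 419.6 in KO_UT_PMN, 578, 408 and 149.7 in WT_LD_PMN and 771, 598 and 551 in WT_UT_PMN. For both genes library 002 was the lowest of KO_LD and library 003 the lowest of WT_LD in PMN-MDSCs.

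Rsad2 had 238, 145 and 144 in KO_LD_M, 147, 325 and 213 in KO_UT_M, 317, 205 and 125 in WT_LD_M and 174, 269.8 and 174 in WT_UT_M. Among PMN libraries it reached 1575, 838 and 1229 in KO_LD_PMN, 1919, 1457 and 2076 in KO_UT_PMN, 2356, 1504 and 301 in WT_LD_PMN and 3753, 3284 and 2825 in WT_UT_PMN. Only WT_LD_PMN_003 of the PMN libraries came down to the level of the M libraries. Mx1, a dynamin-like GTPase that is disrupted in C57BL/6 and most other laboratory mice, had 1234, 753 and 643 in KO_LD_M, 843, 1039 and 1042 in KO_UT_M, 1138, 1429 and 660.3 in WT_LD_M and 1477, 1295 and 1322 in WT_UT_M. In PMN-MDSCs it had 94.8, 39.1 and 41.3 in KO_LD_PMN, 151, 131 and 128 in KO_UT_PMN, 349.9, 274 and 64.3 in WT_LD_PMN and 176, 110.4 and 274 in WT_UT_PMN. The M and PMN libraries did not overlap for Mx1.

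Bst2 had 119.7, 106 and 139 in KO_LD_M, 173, 216 and 127 in KO_UT_M, 168, 156 and 148 in WT_LD_M and 154, 201 and 110.4 in WT_UT_M. The PMN levels of Bst2 were 25.5, 8.49 and 28.9 in KO_LD_PMN, 32.1, 35.3 and 14.8 in KO_UT_PMN, 41.7, 25.0 and 28.5 in WT_LD_PMN and 52.6, 28.8 and 19.6 in WT_UT_PMN. Ifitm3, an endosomal membrane protein that blocks viral entry, had 878, 528 and 1125 in KO_LD_M, 1951, 2246 and 1268 in KO_UT_M, 2025, 1019 and 1099 in WT_LD_M and 1286, 1700.2 and 1472 in WT_UT_M. In PMN-MDSCs its levels were 452, 744 and 581 in KO_LD_PMN, 952, 664 and 971 in KO_UT_PMN, 652, 732 and 1301 in WT_LD_PMN and 738, 532 and 622 in WT_UT_PMN. WT_LD_PMN_003, the lowest of its group for 30 of the 36 genes, was the highest of the 12 PMN libraries for Ifitm3.

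Cxcl10, a chemokine that draws activated T cells, had low counts, 76.9, 25.1 and 42.8 in KO_LD_M, 30.7, 39.6 and 19.7 in KO_UT_M, 79.3, 51.8 and 22.4 in WT_LD_M and 15.7, 38.3 and 33.0 in WT_UT_M. In PMN-MDSCs it had 25.5, 5.94 and 43.3 in KO_LD_PMN, 7.42, 30.2 and 3.96 in KO_UT_PMN, 19.3, 47.3 and 0 in WT_LD_PMN and 37.9, 26.4 and 67.5 in WT_UT_PMN. Ifi44 was the only gene of the 37 not tested within PMN-MDSCs, where its highest level was 9.79 normalized counts. It reached 64.6 in M-MDSCs.

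**Figure D2:**
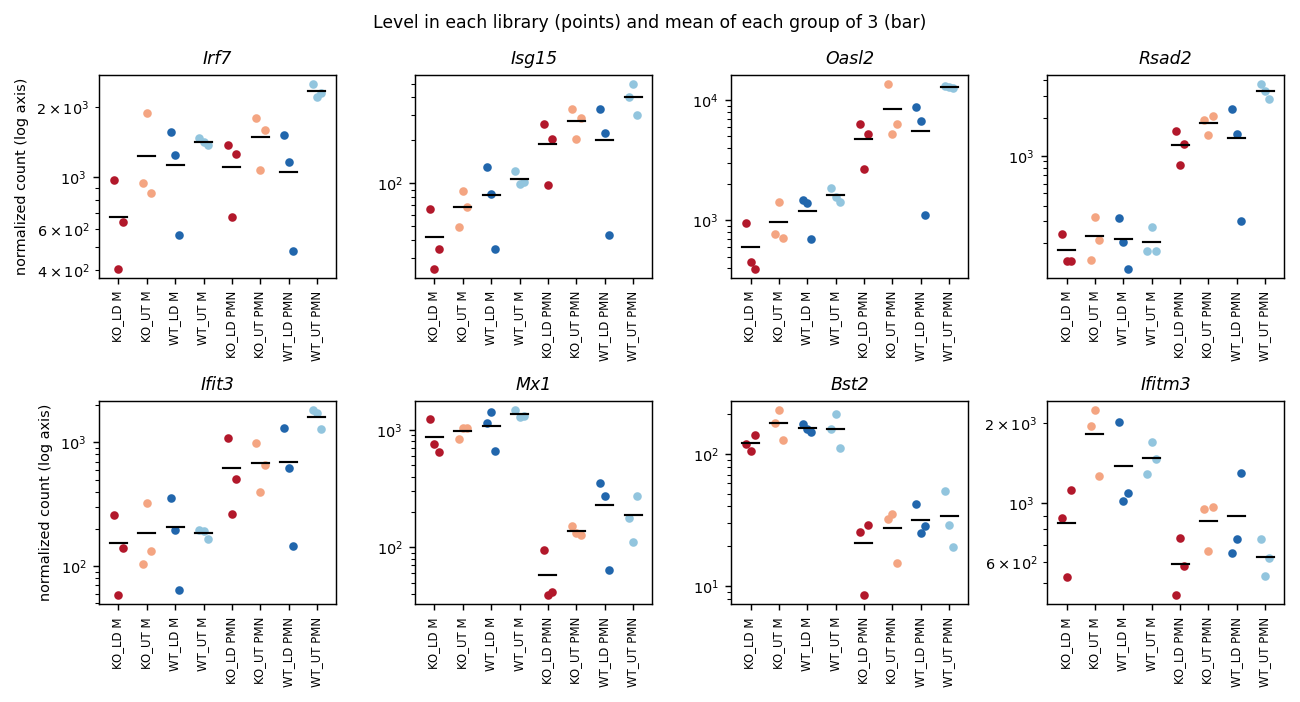
Normalized count (vertical log axis) of 8 genes in each library, by group. Points are libraries and bars are group means. Isg15, Oasl2, Rsad2 and Ifit3 lie higher in most PMN libraries, Mx1 and Bst2 lie higher in every M library, and WT_LD_PMN_003 is the lowest PMN library for Irf7, Isg15, Oasl2, Rsad2 and Ifit3.

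Per kilobase of exon, Ifitm3 had the highest mean level of the 37 genes in every M group, 1244 normalized counts per kilobase in KO_LD, 2687 in KO_UT, 2037 in WT_LD and 2192 in WT_UT. It was also the highest in KO_LD PMN-MDSCs, at 873, and in WT_LD PMN-MDSCs, at 1320. Its rank was 3 in KO_UT PMN-MDSCs, at 1272, and 4 in WT_UT PMN-MDSCs, at 930. In untreated WT PMN-MDSCs, Trim30a, a ubiquitin ligase family member, had 2071 per kilobase and Oasl2 had 2024. Ifi44 was the lowest per kilobase in every group, at 2.40 to 6.24 in M-MDSCs.

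Lymphodepletion was compared with no treatment within each label and cell type. The test was limma on log2(normalized count + 1), with p-values adjusted over all genes tested and called under 0.05. Differences are given on the log2 scale with their standard errors (±), from 3 libraries in each group. In KO-labelled M-MDSCs 4 of the 37 genes fell, Xaf1, Zbp1, Ifitm3 and Slfn5, and none rose. Over all 11570 genes 11.6% were called in either direction and 5.52% were called lower. Xaf1, an antagonist of the apoptosis inhibitor XIAP, had 90.2, 34.8 and 85.1 normalized counts in KO_LD libraries, against 197, 197 and 187 in KO_UT libraries. The groups did not overlap, and the log2 difference was −1.57 ± 0.29 (adjusted p = 0.00486).

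Zbp1, with the levels given above, changed by −1.42 ± 0.34 (adjusted p = 0.0154) and Ifitm3 by −1.14 ± 0.30 (adjusted p = 0.0237). Slfn5, a Schlafen family gene, had 2445, 1089 and 1784 in KO_LD libraries, against 3294, 4796 and 2901 in KO_UT libraries, a difference of −1.09 ± 0.29 (adjusted p = 0.026). Of the 37 differences 35 were below 0, against 52.2% of all genes, and their median was −0.43, against −0.02 over all genes. Non-overlapping groups with KO_LD lower were seen for 6 genes, against 13.6% of all genes. Only Xaf1 was called in every alternative fit. Leaving out KO_LD_M_001 gave 11 calls, and leaving out KO_LD_M_002, KO_UT_M_001 or KO_UT_M_002 gave 1.

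In WT-labelled M-MDSCs only Trim30a fell, with 1603, 1658 and 1031 in WT_LD libraries against 2171, 1934 and 2071 in WT_UT libraries. The groups did not overlap, and the difference was −0.56 ± 0.18 (adjusted p = 0.0487). Over all genes 18.3% were called in either direction and 8.82% were called lower. Of the 37 differences 31 were below 0, against 56.1% of all genes, with a median of −0.46, against −0.07 over all genes. The WT_LD libraries lay below the WT_UT libraries without overlap for 13 genes, against 21.9% of all genes. Without WT_LD_M_003 the median was −0.14 and 26 genes were below 0. No gene of the 37 was called by edgeR or DESeq2 on the recovered reads, without WT_LD_M_003 or without any 1 of the WT_UT libraries. Without WT_LD_M_001 3 were called and without WT_LD_M_002 6.

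Markers of other cells differed with treatment in the same M libraries. NK cell markers summed to 351 to 1132 in KO_LD against 5593 to 8475 in KO_UT, and to 153 to 322 in WT_LD against 1397 to 1594 in WT_UT. B cell markers summed to 66.4 to 92.3 in KO_LD against 573 to 940.4 in KO_UT, and to 34.8 to 68.8 in WT_LD against 279 to 345 in WT_UT. Neutrophil markers went the other way, with 4615 to 9903 in KO_LD against 2751 to 2983 in KO_UT, and 5868 to 21820.2 in WT_LD against 3226 to 3505 in WT_UT. None of the 6 genes of the NK list and none of the 6 of the neutrophil list was at 0 in any M library. Their part in the differences was not tested.

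In WT-labelled PMN-MDSCs 9 of the 36 genes tested fell and none rose, while 10.9% of all 12971 genes were called in either direction and 6.73% were called lower. They were the RNA sensors Ifih1 and Ddx58, the transcription factor Irf7, the GTPase Gbp2, the ADP-ribosyltransferase Parp14, Rsad2, Slfn5, Trim30a and Ddx60. Irf7, at the levels given above, changed by −1.30 ± 0.36 (adjusted p = 0.0337) and Rsad2 by −1.67 ± 0.51 (adjusted p = 0.0452). Neither overlapped between the groups.

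Ifih1 had 963, 772 and 409 in WT_LD libraries, against 1669, 1497 and 1426 in WT_UT libraries, a difference of −1.18 ± 0.30 (adjusted p = 0.027). Ddx58 had 1695, 1612 and 899 in WT_LD libraries, against 2674, 2403 and 2401 in WT_UT libraries, a difference of −0.88 ± 0.24 (adjusted p = 0.0304). For both sensors all WT_LD libraries were below all WT_UT libraries, and WT_LD_PMN_003 was the lowest. Trim30a had 3971, 4372 and 1062 in WT_LD libraries, against 9142, 8710.2 and 7696 in WT_UT libraries, a difference of −1.68 ± 0.43 (adjusted p = 0.0266). Slfn5 had 1875, 2234 and 533 in WT_LD libraries, against 5132, 4160.1 and 3104 in WT_UT libraries, a difference of −1.63 ± 0.46 (adjusted p = 0.0355). Both again had no overlap and the same lowest library.

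Gbp2 had 446, 686 and 102 in WT_LD libraries, against 1080.2, 1002 and 1079.5 in WT_UT libraries, a difference of −1.74 ± 0.49 (adjusted p = 0.0357). Parp14 had 2995, 2519 and 966 in WT_LD libraries, against 4409, 4159 and 4150.4 in WT_UT libraries, a difference of −1.13 ± 0.32 (adjusted p = 0.038). Ddx60 had 3274, 2756 and 1054 in WT_LD libraries, against 5167, 4646 and 4259 in WT_UT libraries, a difference of −1.14 ± 0.35 (adjusted p = 0.0455). Groups did not overlap for these 3 genes either.

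Of the 36 differences 33 were below 0, against 59.1% of all genes, and the median was −0.95, against −0.20 over all genes. Under quantile normalization the median of all genes was −0.05, the median of the 36 genes was −0.82 and none was called. The WT_LD libraries lay below the WT_UT libraries without overlap for 20 genes, against 20.9% of all genes. By edgeR 1 of the 36 was called and by DESeq2 8. Without WT_LD_PMN_003 none of the 36 genes was called and the median was −0.52. Without WT_LD_PMN_001, the library with the fewest reads (3249647), 18 were called. Without the 3 shallowest PMN libraries, WT_LD_PMN_001, KO_UT_PMN_001 and WT_UT_PMN_003, the median was −1.45 and 35 genes were below 0. None was called without any 1 of the 3 WT_UT libraries. Conventional dendritic cell markers in these groups summed to 429.8 to 2006 in WT_LD against 3678 to 4494 in WT_UT, and B cell markers to 34.9 to 122 in WT_LD against 854 to 988 in WT_UT. Their part in the differences was not tested.

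In KO-labelled PMN-MDSCs no gene of the 36 was called by limma, edgeR or DESeq2, while 0.224% of all genes were called by limma. At the looser unadjusted p under 0.05 there were 8 of the 36, for which the share of all genes is not given here. Oas3, an oligoadenylate synthetase, had 1823, 1226 and 1223 in KO_LD libraries, against 2949.9, 1712 and 2615 in KO_UT libraries, a difference of −0.76 ± 0.26 (adjusted p = 0.283). Gbp2 had 320, 194 and 365 in KO_LD libraries, against 1031, 713 and 563 in KO_UT libraries, a difference of −1.39 ± 0.49 (adjusted p = 0.302). Irf9 differed by −0.77 ± 0.28 (adjusted p = 0.332). These were the 3 smallest p-values, and only Gbp2 had no overlap among them. KO_LD was below KO_UT without overlap for 6 of the 36 genes, against 9.81% of all genes. Of the 36 differences 34 were below 0, against 56.4% of all genes, with a median of −0.60, against −0.07 over all genes. The median was −0.33 without KO_LD_PMN_002 and −0.76 without KO_LD_PMN_001. B cell markers summed to 46.7 to 125 in KO_LD against 721 to 1549 in KO_UT, and NK cell markers to 284 to 433 in KO_LD against 459.9 to 1687 in KO_UT. Their part was not tested.

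Across both labels and cell types, 27 of the 36 genes with a value in all 4 comparisons had a lower mean log2 level in the lymphodepleted group each time, against 21.0% of all genes. None of the 36 was higher in all 4. The size of the difference was not shown to depend on the label or the cell type. The interaction of label and treatment gave no call among the 37 genes in M-MDSCs by limma, edgeR or DESeq2. By limma 0.00864% of all genes were called there. In PMN-MDSCs the interaction gave none by the same 3 tools, where 0.0% of all genes were called. At the looser unadjusted p under 0.05 there were 2 in M-MDSCs and 1 in PMN-MDSCs. The share of all genes at that threshold is not given here.

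The 3 smallest p-values of the M interaction belonged to Xaf1 at −1.36 ± 0.42 (adjusted p = 0.328), Ifitm3 at −0.97 ± 0.42 (adjusted p = 0.39) and Ifi44 at 1.09 ± 0.63 (adjusted p = 0.492). Those of the PMN interaction belonged to Ifitm3 at −0.998 ± 0.39 (adjusted p = 0.575), Ddx58 at 0.64 ± 0.33 (adjusted p = 0.587) and Xaf1 at 1.29 ± 0.71 (adjusted p = 0.59). The interaction of cell type and treatment gave no limma call in either label. Of all genes, 0.0966% were called in KO and 0.788% in WT. At the looser unadjusted p under 0.05 there were 2 genes in KO and 6 in WT, again without the share of all genes. By DESeq2 there was 1 call in KO, and by edgeR none. The smallest p-values belonged to Ifi44 at 3.46 ± 1.05 (adjusted p = 0.314), Xaf1 at −1.42 ± 0.55 (adjusted p = 0.5) and Mx1 at 1.13 ± 0.64 (adjusted p = 0.714) in KO. In WT they belonged to Rsad2 at 1.67 ± 0.69 (adjusted p = 0.257), Ifit2 at 1.17 ± 0.51 (adjusted p = 0.286) and Xaf1 at 1.23 ± 0.55 (adjusted p = 0.298).

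**Figure D3:**
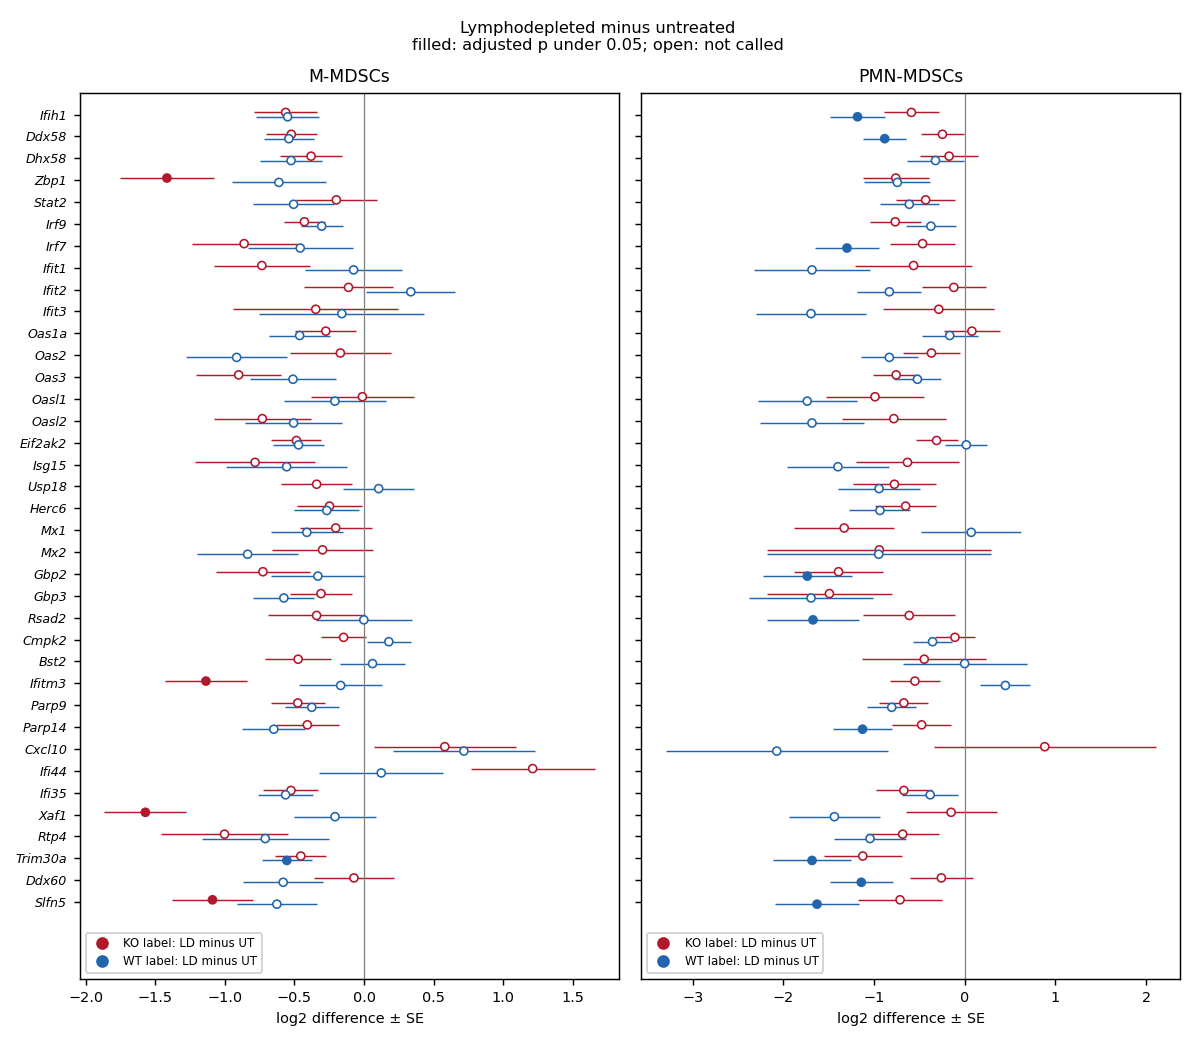
Log2 difference between lymphodepleted and untreated libraries with its standard error (horizontal axis), for each gene, in M-MDSCs (left) and PMN-MDSCs (right) of KO-labelled and WT-labelled mice. Filled points had an adjusted p under 0.05, which 4 genes reached in KO M-MDSCs, 1 in WT M-MDSCs and 9 in WT PMN-MDSCs, all lower after lymphodepletion.

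Libraries labelled KO were then compared with those labelled WT. Among lymphodepleted M-MDSCs all 37 differences were below 0, against 49.0% of all genes, with a median of −0.41, against 0.01 over all genes. No single gene passed the limma test, where 0.207% of all genes were called. At the looser unadjusted p under 0.05 there were 13, for which the share of all genes is not given here. By edgeR there was no call and by DESeq2 there was 1. The lowest count of genes below 0 over the alternatives was 33, without KO_LD_M_002 or WT_LD_M_001. The median was −0.67 without WT_LD_M_003 and −0.66 without KO_LD_M_001.

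Xaf1 had 90.2, 34.8 and 85.1 in KO_LD libraries, against 171, 176 and 116 in WT_LD libraries, a difference of −1.22 ± 0.29 (adjusted p = 0.105). Zbp1 differed by −0.999 ± 0.34 (adjusted p = 0.333) and Oasl2 by −1.02 ± 0.35 (adjusted p = 0.333), with the levels given above. KO_LD was below WT_LD without overlap for 3 of the 37 genes, Xaf1, Cmpk2 and Bst2, against 5.03% of all genes. The NK cell marker sums of these groups were 351 to 1132 in KO_LD and 153 to 322 in WT_LD, and the neutrophil sums 4615 to 9903 in KO_LD and 5868 to 21820.2 in WT_LD. Their part in the differences was not tested.

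Among untreated M-MDSCs 32 of 37 differences were below 0, against 49.2% of all genes, with a median of −0.35, against 0.01 over all genes. Oas2, an oligoadenylate synthetase, fell and was the only gene called, where 4.03% of all genes were called in either direction and 1.79% were called lower. It had 455, 951 and 551 in KO_UT libraries, against 2047, 1547 and 1745 in WT_UT libraries, a difference of −1.51 ± 0.36 (adjusted p = 0.0358). The groups did not overlap, but Oas2 was not called by edgeR, without the filter or after quantile normalization, nor without any 1 of KO_UT_M_001, KO_UT_M_003 and the 3 WT_UT libraries. Without KO_UT_M_002 2 genes were called and the median was −0.54. By DESeq2 1 was called. KO_UT was below WT_UT without overlap for 15 genes and above it for Xaf1 alone, against 17.9 and 16.1% of all genes. The NK cell marker sum was 5593 to 8475 in KO_UT against 1397 to 1594 in WT_UT, and its part was not tested.

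Among PMN-MDSCs no gene of the 36 was called between the labels by limma, edgeR or DESeq2. In untreated mice 35 of 36 differences were below 0, against 54.1% of all genes, with a median of −0.54 against −0.05. By limma 0.00771% of all genes were called. At the looser unadjusted p under 0.05 there were 5 of the 36, for which the share of all genes is not given here. The smallest p-values belonged to Cmpk2, a mitochondrial nucleotide kinase, with 737, 647 and 1017 in KO_UT libraries against 1342, 1187 and 1173 in WT_UT libraries and a difference of −0.65 ± 0.22 (adjusted p = 0.933). They were followed by Ifit2 at −0.96 ± 0.35 (adjusted p = 0.933) and Oas2 at −0.79 ± 0.32 (adjusted p = 0.933). KO_UT was below WT_UT without overlap for 10 genes, Cmpk2 among them, against 6.91% of all genes. NK cell markers in these groups summed to 459.9 to 1687 in KO_UT against 266 to 355 in WT_UT, and conventional dendritic cell markers to 2573 to 3368 in KO_UT against 3678 to 4494 in WT_UT. Their part was not tested.

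KO_LD was below WT_LD without overlap for 1 gene of the 36 in PMN-MDSCs, against 4.9% of all genes. In these lymphodepleted mice 21 of 36 differences were below 0, against 47.1% of all genes, with a median of −0.18 against 0.04. By limma 0.0154% of all genes were called. At the looser unadjusted p under 0.05 there were 2 of the 36, for which the share of all genes is not given here. The direction rested on single libraries. Without WT_LD_PMN_003 the median was −0.67, 35 were below 0 and 1 was called. The median was 0.14 without WT_LD_PMN_002, 0.11 without KO_LD_PMN_002 and 0.09 without WT_LD_PMN_001, and without the 3 shallowest PMN libraries 16 were below 0. Mx1 had the smallest p-value, at −1.76 ± 0.55 (adjusted p = 0.456), followed by Eif2ak2, the kinase PKR, at −0.52 ± 0.23 (adjusted p = 0.584) and Ifitm3 at −0.56 ± 0.27 (adjusted p = 0.6). Over both treatments and cell types, 19 of 36 genes were lower in KO than in WT in all 4 comparisons, against 6.42% of all genes, and none was higher in all 4.

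**Figure D4:**
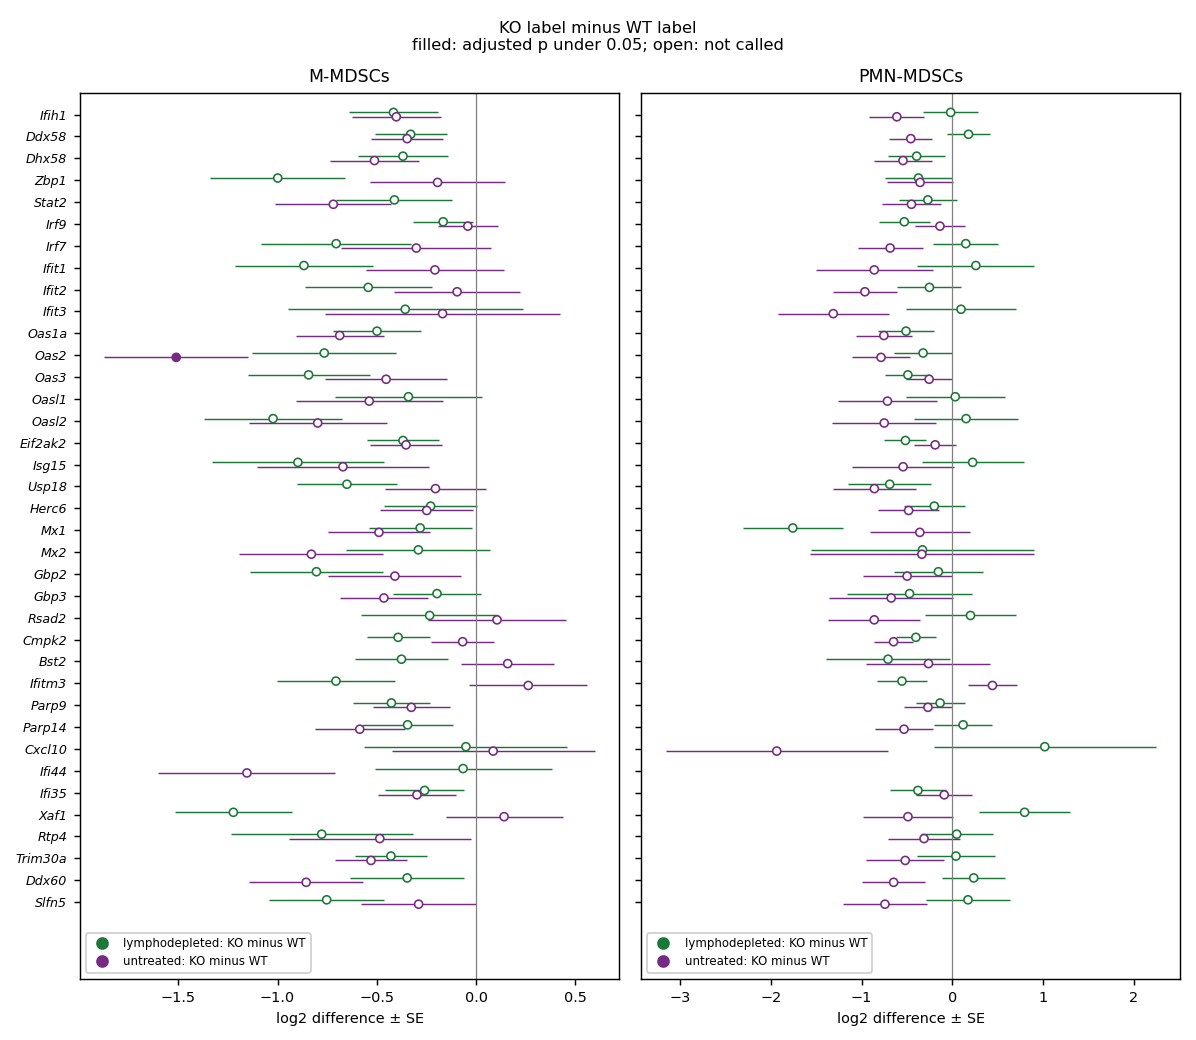
Log2 difference between KO-labelled and WT-labelled libraries with its standard error (horizontal axis), for each gene, in M-MDSCs (left) and PMN-MDSCs (right) of lymphodepleted and untreated mice. Oas2 in untreated M-MDSCs is the only filled point, and in lymphodepleted M-MDSCs all 37 points lie below 0.

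Between the cell types, genes of the list were called in both directions, as were genes at large. M-MDSCs were compared with PMN-MDSCs in each of the 4 groups of mice, with all 24 libraries in the fit. In KO_LD 5 genes were called higher and 13 lower in M-MDSCs, in KO_UT 7 higher and 16 lower, in WT_LD 7 higher and 12 lower, and in WT_UT 8 higher and 19 lower. Over all 13457 genes 23.8 and 23.6% were called higher and lower in KO_LD, 20.3 and 23.6% in KO_UT, 19.4 and 19.9% in WT_LD, and 22.2 and 28.3% in WT_UT. The median difference of the 37 genes was −0.11 in KO_LD, −0.51 in KO_UT, 0.03 in WT_LD and −0.72 in WT_UT, against 0.05, 0.05, 0.07 and −0.08 over all genes. Under quantile normalization 7 were called higher and 12 lower in KO_LD, 10 and 13 in KO_UT, 10 and 10 in WT_LD, and 10 and 13 in WT_UT. That scaling moved the median of all genes in WT_UT to 0.08 and that of the 37 genes to −0.33. Leaving out single libraries moved the median of the 37 genes between −0.43 (without KO_LD_PMN_002) and 0.12 (without KO_LD_PMN_001) in KO_LD and between −0.49 (without WT_LD_PMN_003) and 0.24 (without WT_LD_PMN_001) in WT_LD, so the sign turned in both. In KO_UT the median was −0.71 without KO_UT_PMN_002, −0.31 without KO_UT_M_001 and −0.20 without KO_UT_PMN_001. In WT_UT it ran from −0.88 to −0.66 when single libraries were left out.

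Called higher in M-MDSCs in all 4 groups were 4 genes (10.8%), Bst2, Gbp3, Mx1 and Mx2, close to the 10.3% of all genes. Mx1 had a lowest, median and highest level of 643, 1090.2 and 1477 in the 12 M libraries, against 39.1, 129 and 349.9 in the 12 PMN libraries. The ranges did not overlap, and the log2 difference was 3.95 ± 0.45 (adjusted p = 2.21e-07) in KO_LD, 2.82 ± 0.45 (adjusted p = 2.5e-05) in KO_UT, 2.47 ± 0.45 (adjusted p = 0.000136) in WT_LD and 2.96 ± 0.45 (adjusted p = 1.13e-05) in WT_UT. Mx2, the neighbouring Mx gene on chromosome 16, had 163, 333 and 525 in M libraries, against 0.918, 48.8 and 164 in PMN libraries. The lowest M library and the highest PMN library of Mx2 were almost level.

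Gbp3 had 492, 850.4 and 1142 in M libraries, against 23.0, 192 and 383 in PMN libraries. Bst2 had 106, 151 and 216 in M libraries, against 8.49, 28.6 and 52.6 in PMN libraries. Neither overlapped. Ifi44 had 10.5, 27.8 and 64.6 in M libraries, against 0, 3.78 and 9.79 in PMN libraries, and was called higher in 3 of the 4 groups, as was Xaf1. All 12 M libraries lay above all 12 PMN libraries for 4 of the 37 genes (10.8%), against 8.38% of all genes. They lay below them for 3 (8.11%), against 10.8% of all genes. Plasmacytoid dendritic cell markers, a list that holds Bst2 itself, summed to 509.6 to 1046 in M libraries and 113 to 376 in PMN libraries. Klk1 and Cox6a2 of that list were at 0 in all KO_LD PMN libraries, and the part of such cells was not tested.

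Called lower in M-MDSCs in all 4 groups were 11 genes (29.7%), against 15% of all genes. They were Cmpk2 and Rsad2, which lie side by side on chromosome 12, Ddx58, Ddx60, Ifit1, Oas2, Oas3, Oasl1, Oasl2, Rtp4 and Trim30a. Ddx60 had 178, 317 and 515 in M libraries, against 1054, 2956 and 5167 in PMN libraries. The ranges did not overlap, and the difference was −3.33 ± 0.34 (adjusted p = 4.45e-08) in KO_LD, −3.52 ± 0.34 (adjusted p = 2.32e-08) in KO_UT, −2.75 ± 0.34 (adjusted p = 1.14e-06) in WT_LD and −3.31 ± 0.34 (adjusted p = 4.53e-08) in WT_UT.

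Rsad2 had 125, 189.7 and 325 in M libraries, against 301, 1747 and 3753 in PMN libraries, and differed by −4.01 ± 0.48 (adjusted p = 4.32e-07) in WT_UT. Only WT_LD_PMN_003 overlapped the M range. Its neighbour Cmpk2 had 236, 296 and 379 in M libraries, against 616, 883 and 1342 in PMN libraries, with no overlap, and differed by −2.01 ± 0.19 (adjusted p = 1.06e-08) in WT_UT. Ifit1 had 43.8, 93.6 and 163 in M libraries, against 87.3, 712 and 1505 in PMN libraries, and differed by −3.42 ± 0.59 (adjusted p = 4.45e-05) in WT_UT.

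Of 5 oligoadenylate synthetase genes, 4 were called lower in M-MDSCs in all 4 groups. Oas2 had 403, 978 and 2047 in M libraries, against 1624, 3281 and 6113 in PMN libraries, and Oas3 had 288, 716 and 1042 in M libraries, against 1223, 2312 and 3298 in PMN libraries. Oas3 had no overlap. Oasl1 had 47.8, 114 and 167 in M libraries, against 106, 549 and 1373 in PMN libraries, and Oasl2 had 396, 1175 and 1865 in M libraries, against 1106, 6475 and 13662 in PMN libraries. Oas1a, which lies on the same chromosome, had 233, 385 and 577 in M libraries, against 173, 338 and 528 in PMN libraries, and was called in none of the 4 groups. After quantile normalization Oas2 and Trim30a were no longer called in all 4 groups.

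Among the sensors, Ddx58 had 405, 622 and 956 in M libraries, against 899, 1742 and 2674 in PMN libraries, and differed by −1.52 ± 0.22 (adjusted p = 4.24e-06) in WT_UT. Dhx58 and Zbp1 were called in no group and Ifih1 in 1. Of the transcription factors Irf9 was called lower in M-MDSCs in 3 groups, and Stat2 and Irf7 in none. Trim30a had 929, 1495 and 2171 in M libraries, against 1062, 4446 and 9142 in PMN libraries. Rtp4, a receptor transporter protein, had 47.8, 157 and 275 in M libraries, against 203, 553 and 994 in PMN libraries.

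Ifit3 and Isg15 were called lower in M-MDSCs in 3 of the 4 groups, Gbp2 and Parp9 in 2, and Usp18 and Herc6 in 1. Eif2ak2 and Ifitm3 were called higher in 2 groups and Slfn5 in 1. Called in no group were 9 genes, Dhx58, Zbp1, Stat2, Irf7, Ifit2, Oas1a, Parp14, Cxcl10 and Ifi35. They were 24.3% of the 37, against 30.7% of all genes. No gene of the 37 was called in opposite directions, against 0.305% of all genes. Over 33 fits, the one above and 32 with another setting or with libraries left out, Bst2 and Mx1 were called higher, and Cmpk2, Ddx58, Ddx60, Oas3 and Rsad2 lower, in all 4 groups each time. The number lower in all 4 was 6 without WT_LD_M_003, WT_LD_PMN_001 or WT_LD_PMN_002, and 13 without WT_LD_PMN_003.

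**Figure D5:**
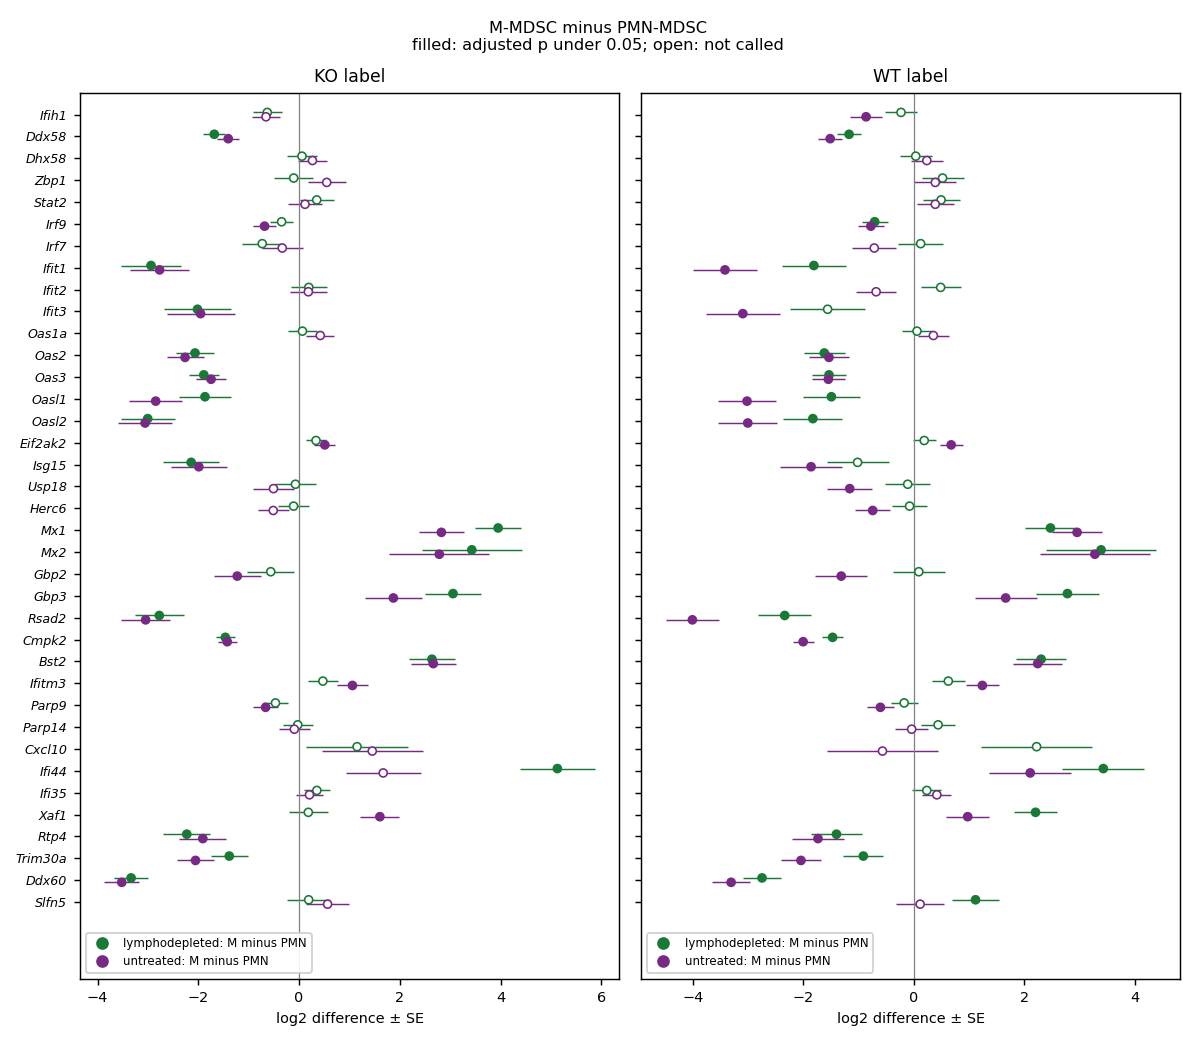
Log2 difference between M-MDSC and PMN-MDSC libraries with its standard error (horizontal axis), for each gene, in KO-labelled mice (left) and WT-labelled mice (right), lymphodepleted and untreated. Mx1, Mx2, Gbp3 and Bst2 are filled above 0 in all 4 groups, and 11 genes, Ddx60 and Rsad2 among them, are filled below 0 in all 4.

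Genes upstream in the pathway were read in the same fits. Of 18 type I and type III interferon genes in the table, between 0 and 3 had a read in the M libraries and 0 to 10 in the PMN libraries. Their summed reads were 0 to 7 in M libraries and 0 to 26 in PMN libraries, the highest in KO_UT_PMN_001. None passed the filter on low levels. Ifng, the type II interferon made mainly by NK and T cells, had 20.9, 18.6 and 39.2 in KO_LD_M, 188, 188 and 145 in KO_UT_M, 15.5, 7.74 and 2.59 in WT_LD_M and 76.9, 68.3 and 64.2 in WT_UT_M. It fell in lymphodepleted M-MDSCs, with differences of −2.74 ± 0.45 (adjusted p = 0.00273) in KO and −3.14 ± 0.45 (adjusted p = 0.000363) in WT, with no overlap, alongside the NK cell marker sums given above.

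Of the 7 receptor and kinase genes, 2 fell with lymphodepletion in KO M-MDSCs, Jak1 at −0.98 ± 0.13 (adjusted p = 0.00073) and Ifngr1 at −0.59 ± 0.18 (adjusted p = 0.0451), and 2 in WT M-MDSCs, Tyk2 at −0.51 ± 0.13 (adjusted p = 0.0137) and Jak1 at −0.44 ± 0.13 (adjusted p = 0.0333). In WT PMN-MDSCs Jak1 at −0.82 ± 0.19 (adjusted p = 0.0201) and Ifnar1 at −0.86 ± 0.27 (adjusted p = 0.0494) fell. Over all genes 5.52% were called lower in KO M-MDSCs, 8.82% in WT M-MDSCs and 6.73% in WT PMN-MDSCs. Among 12 signal transducers, Mb21d1, which encodes the DNA sensor cGAS, rose with lymphodepletion in M-MDSCs, by 0.80 ± 0.18 (adjusted p = 0.0103) in KO and 0.79 ± 0.18 (adjusted p = 0.00744) in WT. It had 223, 271 and 229.9 in KO_LD libraries against 114, 157 and 145 in KO_UT, and 262, 209 and 247 in WT_LD against 161, 134 and 119 in WT_UT.

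Among partner factors and inhibitors, Socs3 fell with lymphodepletion in KO M-MDSCs (−1.14 ± 0.35, adjusted p = 0.0475), together with Ptpn1, and in WT M-MDSCs (−1.26 ± 0.35, adjusted p = 0.0218). In WT PMN-MDSCs those that fell included Irf1 at −1.60 ± 0.42 (adjusted p = 0.0281) and Pias1 at −0.76 ± 0.21 (adjusted p = 0.0347). Irf1, a transcription factor induced by both interferon types, had 2276, 2035 and 633 in WT_LD libraries against 3882, 4419 and 4816 in WT_UT libraries. WT_LD_PMN_003 was again the lowest. Results of the fits without single libraries are not given here for these other lists.

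Of 54 other interferon-stimulated genes tested, 1 rose and 10 fell with lymphodepletion in KO M-MDSCs, led by Phf11b at −1.45 ± 0.27 (adjusted p = 0.00442), Gbp4 at −1.71 ± 0.34 (adjusted p = 0.00628) and Slfn1 at −1.20 ± 0.29 (adjusted p = 0.0151). Their median was −0.51, against −0.43 for the 37 genes. Over all genes 5.52% were called lower in that comparison. In WT M-MDSCs 2 of 54 fell, Trim25 and Trim34a, with a median of −0.24, where 8.82% of all genes were called lower. In WT PMN-MDSCs 1 rose and 8 fell, led by Gbp7 at −1.49 ± 0.30 (adjusted p = 0.0117), with a median of −0.68. Of all genes 6.73% were called lower in WT PMN-MDSCs. Ifitm6, a relative of Ifitm3, was the gene that rose there, with 430.2, 205 and 2687 in WT_LD libraries against 104, 136 and 131 in WT_UT libraries and a difference of 2.33 ± 0.66 (adjusted p = 0.0372). WT_LD_PMN_003 was by far the highest. In KO PMN-MDSCs 1 fell, Ifitm2 at −1.52 ± 0.30 (adjusted p = 0.0486), where 0.224% of all genes were called in either direction.

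Between the labels, 1 of the 54 was called lower in KO_UT than in WT_UT M-MDSCs, where 1.79% of all genes were called lower. It was Oas1g, with 42.5, 73.3 and 52.3 in KO_UT libraries against 177, 201 and 189.7 in WT_UT libraries. Its difference was −1.77 ± 0.28 (adjusted p = 0.00622). Oas1g and Oas2 both belong to the oligoadenylate synthetase cluster of chromosome 5. The gene beside Oas2 there is Oas3, which was not called in this comparison. In the same comparison Irf8 was called higher, at 0.61 ± 0.15 (adjusted p = 0.0373), and Myd88, an adaptor of Toll-like receptors, lower, at −0.75 ± 0.19 (adjusted p = 0.0437). No gene of the upstream lists or of the 54 was called between the labels in the other 3 comparisons by limma. The 54 genes had 46 differences below 0 in lymphodepleted M-MDSCs, against 49.0% of all genes, with a median of −0.38. They had 31 below 0 in untreated M-MDSCs, against 49.2% of all genes, with a median of −0.08.

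Between the cell types, 7 of 12 signal transducers were called higher and 2 lower in M-MDSCs in KO_LD, 7 and 2 in KO_UT, 8 and 1 in WT_LD, and 6 and 1 in WT_UT. Tmem173, which encodes STING, differed by 2.79 ± 0.31 (adjusted p = 1.16e-07) in WT_UT and Irf5 by 1.74 ± 0.22 (adjusted p = 8.11e-07). Among the partner factors Irf8, a monocyte lineage factor, was higher in M-MDSCs, at 2.86 ± 0.40 (adjusted p = 3.02e-06) in WT_UT, and the inhibitor Socs3 was lower, at −2.60 ± 0.52 (adjusted p = 0.000238). Shares over all genes in these groups are given above and lay between 19.4 and 28.3% in each direction. Of 55 other interferon-stimulated genes, 14 were higher and 18 lower in M-MDSCs in KO_LD, 11 and 15 in KO_UT, 15 and 12 in WT_LD, and 12 and 17 in WT_UT. Ifitm1, a relative of Ifitm3, was lower, at −4.79 ± 0.50 (adjusted p = 5.2e-08) in WT_UT.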

How the data were processed

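Total RNA of sorted MDSCs was sequenced from 100 ng per library. The signal values that the authors deposited are normalized read counts per gene, and their low values show that each library's reads were divided by a single factor: 100% of values were whole multiples of its step (tolerance 0.001 reads). The submitters' processing notes name the aligner STAR 2.5.3a, the counter HTSeq 0.6.1, DESeq2 and the build mm10. The strand setting is not stated there, so reads of overlapping antisense genes cannot be told apart. Rn45s took 2.94 to 19.8% of reads.

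Replicates differed by more than sampling noise (lowest chi-square per degree of freedom 6.41). No number of mice is stated for KO_LD, so p-values there may measure technical spread only. Tests used limma 3.58.1 in R 4.3.3, with a trend in the prior variance, on log2(normalized count + 1), which understates differences of low genes. M and PMN libraries were fitted apart, 12 each, and cell types were compared with all 24. A gene was kept where 3 of the libraries fitted reached 10 normalized counts. Two-sided p-values were adjusted by Benjamini-Hochberg over every gene kept. The fit was tested on simulated data. Other settings tried were pseudocounts of 0.5 and 5, leaving out the filter, quantile normalization, edgeR 4.0.16 or DESeq2 1.42.0 on the recovered reads, a block for the replicate number, a single fit of all 24 libraries, and leaving out each library or the 3 shallowest PMN libraries. ± marks a standard error.

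Genes named are 12 key members (Irf7, Irf9, Stat2, Isg15, Usp18, Ifit3, Oasl2, Rsad2, Mx1, Cxcl10, Bst2 and Ifitm3) and, in each comparison, up to 12 called members, or the 3 with the smallest p where none was called. Of other lists, up to 3 called genes are named, with further ones chosen after their values were seen. The members and lists were chosen with earlier results of these data known. Promoters came from RefSeq (GRCm38.p6). Ifit3b, Ly6g and other listed symbols without a row of that name were not used here.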

Additional observations from a re-analysis of the deposited data

Results flagged for a closer look

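Xaf1 in M-MDSCs was set apart by the order of its libraries. Those labelled KO lay below those labelled WT in lymphodepleted mice and above them in untreated mice, without overlap. Among lymphodepleted mice it had 90.2, 34.8 and 85.1 in KO_LD libraries against 171, 176 and 116 in WT_LD libraries, a log2 difference of −1.22. Among untreated mice it had 197, 197 and 187 in KO_UT libraries against 168, 177 and 183 in WT_UT libraries, a log2 difference of 0.14 ± 0.29. The untreated difference was smaller than its standard error. How many of all genes show such an opposite order was not counted. The opposite order was not tested as such, and the interaction term for Xaf1 missed the threshold by limma at −1.36 ± 0.42 (adjusted p = 0.328).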

How the results depend on the processing

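Single genes were followed only where they had the smallest p-values of a comparison, which leaves out other named genes such as Stat2, Usp18 and Cxcl10. Of 1311 alternative values for the genes followed none reversed, 91 calls were lost, 3 were gained and 1217 kept their side of the threshold. Genes picked by small p-values seldom reverse, so this does not cover the other genes. For KO_LD against WT_LD PMN-MDSCs, 16 to 35 genes were below 0 over the alternatives, against 21 in the main fit. The median there ran from −0.67 to 0.14. The count of genes called with lymphodepletion in WT M-MDSCs, 1, was 0 without the filter, with quantile normalization, edgeR, DESeq2 or all 24 libraries in 1 fit, and 0 to 6 when single libraries were left out. With lymphodepletion in KO M-MDSCs, 4 became 1 to 11 on leaving out libraries. For KO_UT against WT_UT M-MDSCs, 1 became 0 without the filter, with quantile normalization, edgeR or all 24 libraries, and 0 to 2 on leaving out libraries. Among lymphodepleted mice, KO against WT gave 1 by DESeq2 in M-MDSCs, where the main count was 0, and 0 to 1 on leaving out libraries in PMN-MDSCs. With lymphodepletion in WT PMN-MDSCs, 9 became 0 with quantile normalization, 1 by edgeR, 16 with all 24 libraries, and 0 to 18 on leaving out libraries. The interaction of cell type and treatment in KO gave 1 by DESeq2, where the main count was 0. For cell types, leaving out libraries gave 17 to 19 calls in KO_LD, 17 to 21 in KO_UT, 13 to 20 in WT_LD and 21 to 23 in WT_UT, where the main counts were 18, 23, 19 and 27. Causes were not tested.

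Over all genes, calls with lymphodepletion ranged from 815 to 2469 in WT M-MDSCs (main 2122), 509 to 1792 in KO M-MDSCs (1346), 114 to 3491 in WT PMN-MDSCs (1410) and 0 to 325 in KO PMN-MDSCs (29). Between KO and WT they ranged from 0 to 185 in lymphodepleted M-MDSCs (24), 36 to 1071 in untreated M-MDSCs (466), 0 to 111 in lymphodepleted PMN-MDSCs (2) and 0 to 10 in untreated PMN-MDSCs (1). Correlations of same-numbered deviations cannot settle whether replicate numbers pair the libraries, and the main fits took the libraries as unpaired. In every pair of groups the lowest correlation was 0.0941 or less. Between M and PMN libraries of the same number they were 0.13, 0.22 and 0.03 in KO_LD and −0.04, 0.16 and 0.14 in WT_LD. They were −0.03, −0.08 and 0.02 in KO_UT and 0.03, 0.04 and 0.01 in WT_UT. With the replicate number as a block, 1 gene was called with lymphodepletion in WT M-MDSCs, 5 in KO M-MDSCs, 13 in WT PMN-MDSCs and 0 in KO PMN-MDSCs, and 1 between KO_UT and WT_UT M-MDSCs. Between cell types the block gave 19, 23, 20 and 27 calls in KO_LD, KO_UT, WT_LD and WT_UT. Intervals from counting reads were not computed, and low levels such as those of Isg15, Cxcl10, Bst2 and Ifi44 are the least precise.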
